A study of Mus musculus with 12 samples.

Results

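Amino acid transporters are described here as 9 genes, chosen by symbol: Slc7a5, Slc3a2, Slc7a6, Slc43a1, Slc1a5, Slc1a4, Slc7a1, Slc38a1 and Slc38a2. They are 9 of the 53762 gene symbols counted and 9 of the 16945 that passed a filter on low counts, so every member was tested. The RNA came from T cells of the mouse spleen that had been cultured together with a partner cell, labelled Res_ctrl (the control partner) or Res_shFabp7 (a partner with a short hairpin RNA against Fabp7, a fatty acid binding protein). The 4 groups, each of 3 libraries, were T cells with the Res_ctrl partner for 24 h, the Res_shFabp7 partner for 24 h, the Res_ctrl partner for 48 h and the Res_shFabp7 partner for 48 h. All groups shared the same medium, RPMI-1640 to which fetal serum, penicillin and streptomycin were added, and no group held T cells without a partner. The design asks which genes of the T cells respond to the change of partner. The sources used here do not give the line behind Res, the number of clones, the mouse strain and age, any stimulus given to the T cells, and the way they were parted from the partner cells. The labels do not say whether the replicates came from different cultures or mice. The p-values therefore speak only of the scatter among these libraries, part or all of which may be technical.

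T cells take up amino acids through membrane carriers, and activated T cells raise many of them as they grow and divide. Slc7a5 (LAT1) exchanges large neutral amino acids such as leucine, and it reaches the cell surface only when bound to the heavy chain Slc3a2 (4F2hc, CD98). Leucine, arginine and glutamine entering the cell bear on the activity of the growth kinase complex mTORC1. When amino acids run short, the kinase GCN2 (Eif2ak4) favours translation of the transcription factor ATF4, which raises several of these carriers together with enzymes of serine and asparagine synthesis.

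Library totals were 32.0 to 40.6 M counts, and all pairs of replicates differed by more than counting noise. Fabp7, the gene targeted in the partner, had 0 counts in 9 of the 12 libraries and at most 3 in the others, all 48 h controls, which checks only the T cells. All 12 T cell markers were tested, and their summed level was 3376 to 4031 CPM (counts scaled to the size of the library). The summed levels of B cell, monocyte and macrophage, dendritic cell, neutrophil, erythroid, epithelial and fibroblast markers each stayed at or below 28.0 CPM in every library, with Krt14 and Cd209a at 0 counts throughout. The NK cell list summed to 139 to 165 CPM, nearly all of it Eomes, which activated T cells also express, while Ncr1 stayed at or below 0.730 CPM. Outside the shFabp7 group at 48 h, most of the transporters tended to be high or low together in the same library. In the shFabp7 group at 48 h, replicates 1, 2 and 3 were the highest for 3, 1 and 5 of the 9. Replicate 1 of the control partner at 48 h was the highest of its group for 8 of the 9, and replicate 2 the lowest for 7. Replicate 3 of the control partner at 24 h was the highest for 7, and in the shFabp7 group at 24 h replicate 2 was the highest for 6 and replicate 3 the lowest for 7. Over all tested genes no library was the highest or lowest of its group for more than 39.6%. Omitting replicate 3 of the control partner at 24 h moved the member counts most, and results that rest on it are given with and without it.

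The order of the members by level was taken per kilobase of transcript, as CPM scaled by TMM (trimmed mean of M-values) and divided by the median length of the gene's annotated transcripts, which include short gene models (the median for Slc7a5 was 618 bases and its only protein-coding transcript 3517 bases). With the control partner at 24 h, Slc7a5 was highest at 425 ± 98.5 CPM per kilobase (SD, n = 3), followed by its heavy chain Slc3a2 at 286 ± 38.7 and the glutamine exchanger Slc1a5 at 221 ± 28.4. The arginine and lysine carrier Slc7a1 had 149 ± 20.1, the light chain Slc7a6 104 ± 3.51, and the sodium-coupled glutamine carriers Slc38a1 and Slc38a2 92.1 ± 3.46 and 40.4 ± 4.50 CPM per kilobase. Slc1a4 and Slc43a1 were far lower, at 3.40 ± 1.60 and 1.5 ± 0.249 CPM per kilobase. No 2 neighbours in this order overlapped in their 3 libraries. The order of the upper 7 depended on the length taken. With the longest transcript, Slc3a2 came first at 82.6 ± 11.2 CPM per kilobase, Slc7a5 followed at 74.6 ± 17.3, and Slc7a6 was the lowest of the 7 at 21.2 ± 0.716. With those lengths the libraries of Slc3a2, Slc7a5 and Slc1a5 overlapped along the order, as did those of Slc38a1, Slc7a1 and Slc38a2, while Slc1a4 and Slc43a1 stayed lowest. With the median length of protein-coding transcripts only, Slc3a2 came first at 359 CPM per kilobase, then Slc7a1 at 238, Slc7a6 at 115 and Slc7a5 at 74.6. The order among the upper 7 is therefore not settled by these data.

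The promoters of 6 of the 9 members were in the RefSeq table of build GRCm38.p6, which gives 250 bases before to 50 bases after each start site. They were those of Slc3a2, Slc7a1, Slc38a2, Slc7a6, Slc1a4 and Slc43a1, with 2 entries each for Slc7a1 and Slc7a6. Slc7a5, Slc1a5 and Slc38a1 had no entry. Both strands were searched for a pair of motifs: TGATGNAA, the core of the amino acid response element that ATF4 and its partners bind, and CACGTG, the E-box that MYC and related factors bind. The motifs do not overlap each other. The first was found in Slc1a4 alone, where it is read on the strand opposite to the gene and starts 4 bases before the start site; 3.97% of all 32851 promoters of this length hold it. The second was found in Slc43a1 alone, 64 bases before the start site, and 7.15% of all promoters hold it. Both sequences are shown because these are the least abundant members and the ones not called lower over time with either partner below, and Slc7a6 is shown as a member with neither motif that differed between the partners at both times. Capitals mark the motif, each sequence runs 5′ to 3′ on the strand of its gene, and a match is a description of the letters only. The windows are chr11:20332710-20332963 on the minus strand for Slc1a4, which runs 4 bases past the start site to hold the whole motif, chr2:84840073-84840322 on the plus strand for Slc43a1, and chr8:106168604-106168853 on the plus strand for the first entry of Slc7a6.
Slc1a4: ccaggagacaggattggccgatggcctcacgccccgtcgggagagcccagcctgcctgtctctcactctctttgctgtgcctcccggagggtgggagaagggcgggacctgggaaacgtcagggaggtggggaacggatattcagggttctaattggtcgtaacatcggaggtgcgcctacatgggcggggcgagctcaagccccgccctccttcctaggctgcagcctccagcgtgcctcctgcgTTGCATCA
Slc43a1: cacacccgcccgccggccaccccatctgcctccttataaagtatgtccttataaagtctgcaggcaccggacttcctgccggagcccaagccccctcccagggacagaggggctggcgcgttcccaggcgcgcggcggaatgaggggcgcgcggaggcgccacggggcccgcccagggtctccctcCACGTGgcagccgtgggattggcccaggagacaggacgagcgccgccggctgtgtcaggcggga
Slc7a6: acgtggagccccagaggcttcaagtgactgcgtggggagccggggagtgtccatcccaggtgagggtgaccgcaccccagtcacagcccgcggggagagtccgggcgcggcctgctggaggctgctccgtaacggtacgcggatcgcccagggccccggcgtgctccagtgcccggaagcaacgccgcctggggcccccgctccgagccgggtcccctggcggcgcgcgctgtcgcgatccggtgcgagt

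At 24 h, 1 of the 9 transporters, Slc7a6, was higher with the shFabp7 partner and 0 were lower, while 10.9% of all tested genes passed the same threshold, 6.22% higher and 4.65% lower. Of all calls 57.2% were thus higher, and 42.1% with upper-quartile scaling or 33.2% with library totals in place of TMM. The threshold was an adjusted p under 0.05 in edgeR's quasi-likelihood test, with Benjamini-Hochberg adjustment over all tested genes. By edgeR 1 member was higher and 0 were lower at an unadjusted p under 0.05 too, and DESeq2 also called 1 higher and 0 lower. The median log2 fold change of the 9 was 0.08, beside -0.0041 over all tested genes. In bulk RNA, fewer cells of a type and less RNA per cell cannot be told apart.

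The heavy chain and its light chains are described first, and of these only Slc7a6 passed the threshold. Slc7a6 (y+LAT2), a light chain that exchanges cationic for neutral amino acids, had 76.9, 82.3 and 79.1 CPM with the control partner and 94.9, 90.7 and 88.9 CPM with the shFabp7 partner. All 3 libraries of the shFabp7 partner were above all 3 of the control, the only member without overlap at 24 h, where 27.5% of all tested genes had none. The log2 fold change was 0.20 ± 0.06 (SE), with an adjusted p of 0.0155 by edgeR. That call was lost without replicate 1 of the control partner (adjusted p = 0.0611), without replicate 1 of the shFabp7 partner (adjusted p = 0.0585) and with library totals in place of TMM scaling (adjusted p = 0.0549).

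At 24 h Slc7a5 had 225, 229 and 333 CPM with the control partner and 283, 301 and 264 CPM with the shFabp7 partner. Slc3a2 had 209, 220 and 268 CPM with the control partner and 244, 254 and 236 CPM with the shFabp7 partner. In both genes replicate 3 of the control lay above every shFabp7 library, and replicates 1 and 2 lay below all of them, so the groups overlapped. With all libraries the log2 differences were 0.11 ± 0.14 for Slc7a5 and 0.08 ± 0.07 for Slc3a2, with adjusted p-values of 0.716 and 0.539 by edgeR. Slc43a1 (LAT3), which moves large neutral amino acids without a heavy chain, had 4.0, 4.33 and 3.10 CPM against 3.46, 2.85 and 3.55 CPM. Its groups overlapped, and its log2 difference was -0.21 with a 95% interval from -0.53 to 0.11.

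Of the carriers that work without Slc3a2, none passed the threshold at 24 h. Slc1a5 (ASCT2), which exchanges glutamine and other small neutral amino acids, had 144, 157 and 185 CPM with the control partner and 178, 180 and 175 CPM with the shFabp7 partner. Slc7a1 (CAT1) had 268, 274 and 339 CPM against 327, 327 and 289 CPM. In both genes replicates 1 and 2 of the control were below all shFabp7 libraries and replicate 3 above them. Slc38a1 (SNAT1) had 337, 334 and 358 CPM against 365, 356 and 328 CPM, with a log2 difference of 0.03 and a 95% interval from -0.08 to 0.14. Slc38a2 (SNAT2), a carrier known to rise when amino acids are scarce, had 210, 198 and 245 CPM against 204, 212 and 193 CPM. Its log2 difference was -0.10 with a 95% interval from -0.22 to 0.02. Slc1a4 (ASCT1), an exchanger of alanine, serine, cysteine and threonine, had 8.64, 10.8 and 20.4 CPM with the control partner and 8.30, 12.5 and 8.47 CPM with the shFabp7 partner. The highest of these 6 values, again in replicate 3 of the control, was 716 counts. The log2 difference of Slc1a4 was -0.45 ± 0.31, with an adjusted p of 0.426 by edgeR.

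Leaving out replicate 3 of the control partner at 24 h raised the number of transporters higher with the shFabp7 partner from 1 to 5, with 0 lower, while 8.23% of the 17436 genes then tested passed the threshold, 5.71% higher and 2.52% lower. Slc7a5 then differed by 0.33 ± 0.06 on the log2 scale (adjusted p = 9.12e-04 by edgeR). Slc1a5 differed by 0.26 ± 0.06, Slc7a1 by 0.24 ± 0.06, Slc3a2 by 0.21 ± 0.06 and Slc7a6 by 0.22 ± 0.06 on the log2 scale, with adjusted p-values from 0.0079 to 0.0218. These 5 are the heavy chain, its light chains Slc7a5 and Slc7a6, and the glutamine and arginine carriers Slc1a5 and Slc7a1. Slc38a1 and Slc38a2 did not pass, with log2 differences of 0.08 ± 0.06 and 0.01 ± 0.06. Slc1a4 moved from -0.45 to 0.02 on the log2 scale, so its lower mean with the shFabp7 partner rested on that library. Leaving out any 1 of the other 11 libraries gave 0 or 1 transporters higher.

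**Figure D1:**
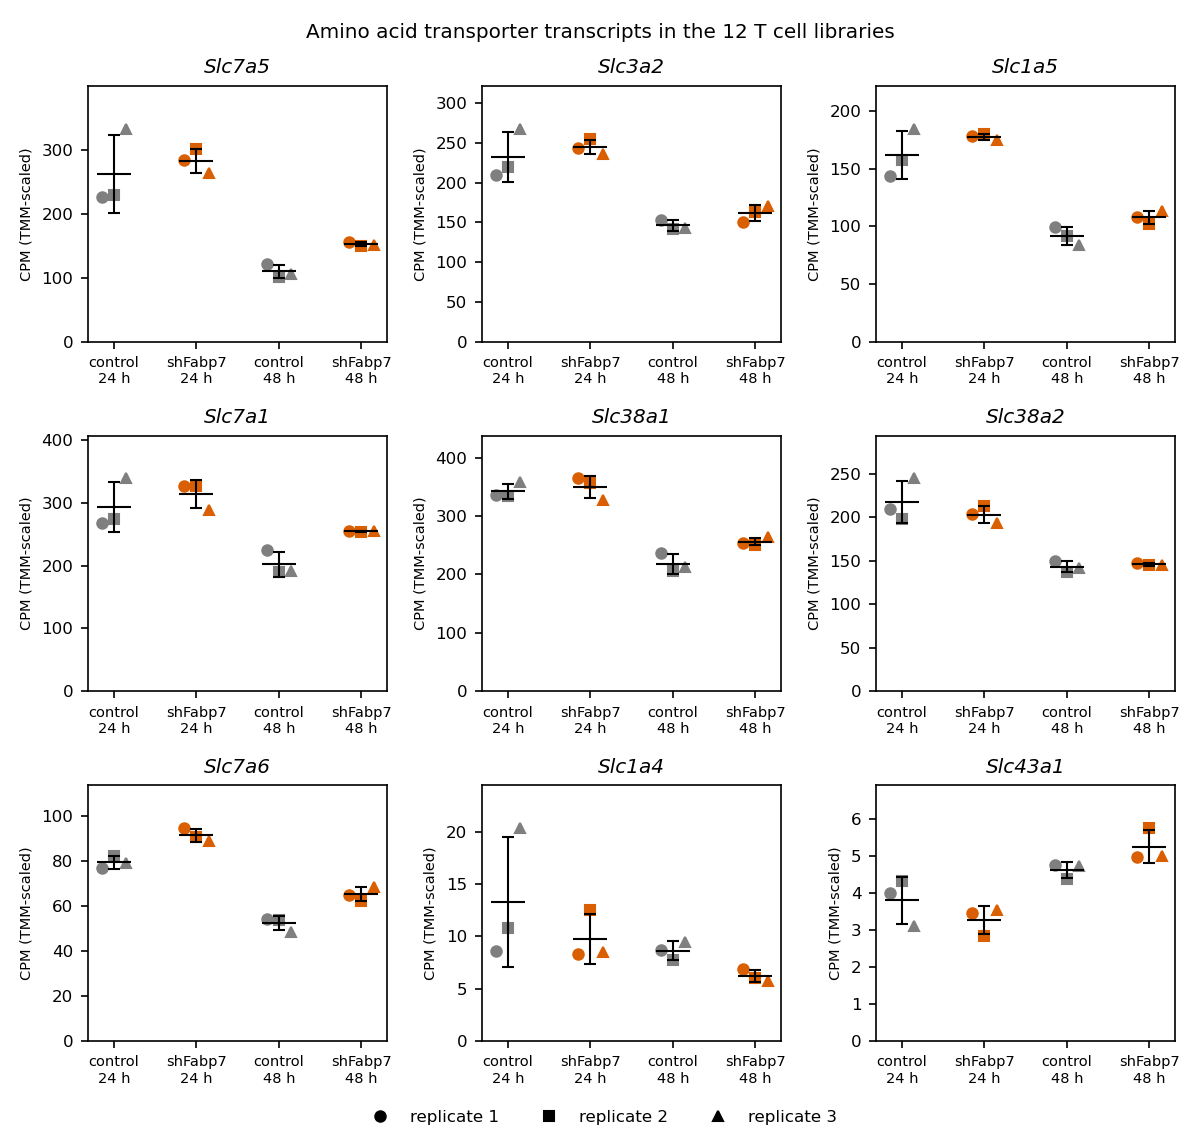
Level of each of the 9 transporters (CPM, TMM-scaled, linear axis from 0) in every library of the 4 groups, with replicate numbers as marker shapes, and the group mean and SD (n = 3) as bars. Replicate 3 of the control partner at 24 h (grey triangle) is the highest of its group in 7 of the 9 panels, and with either partner all 7 transporters other than Slc1a4 and Slc43a1 are lower in every 48 h library than in every 24 h library.

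The library whose omission moved these values was also high in the genes known to respond to amino acid shortage through ATF4. Of the 25 genes of that list, all tested, replicate 3 of the control partner at 24 h was the highest of its group for 21, and replicate 1 of that group was the lowest for 21. The mean log2 level of the list, relative to its mean over the 12 libraries, was -0.19, -0.03 and 0.39 in the 3 control libraries and -0.14, 0.15 and -0.08 in the 3 shFabp7 libraries at 24 h. The 6 libraries at 48 h lay between -0.06 and 0.02. Within each 24 h group the 3 Slc1a4 values stood in the same order as the list, and those of Slc7a6 did not. The sodium-coupled glycine carrier Slc6a9, which is not a member, had 12.1, 10.7 and 28.2 CPM in the control libraries at 24 h, so it too was highest in replicate 3. With all libraries 1 gene of the list was higher and 1 lower with the shFabp7 partner at 24 h, beside 6.22% and 4.65% of all tested genes. Without that library 4 were higher and 0 lower, beside 5.71% and 2.52% of the genes then tested. Its part in the transporter values beyond these omissions was not tested.

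**Figure D2:**
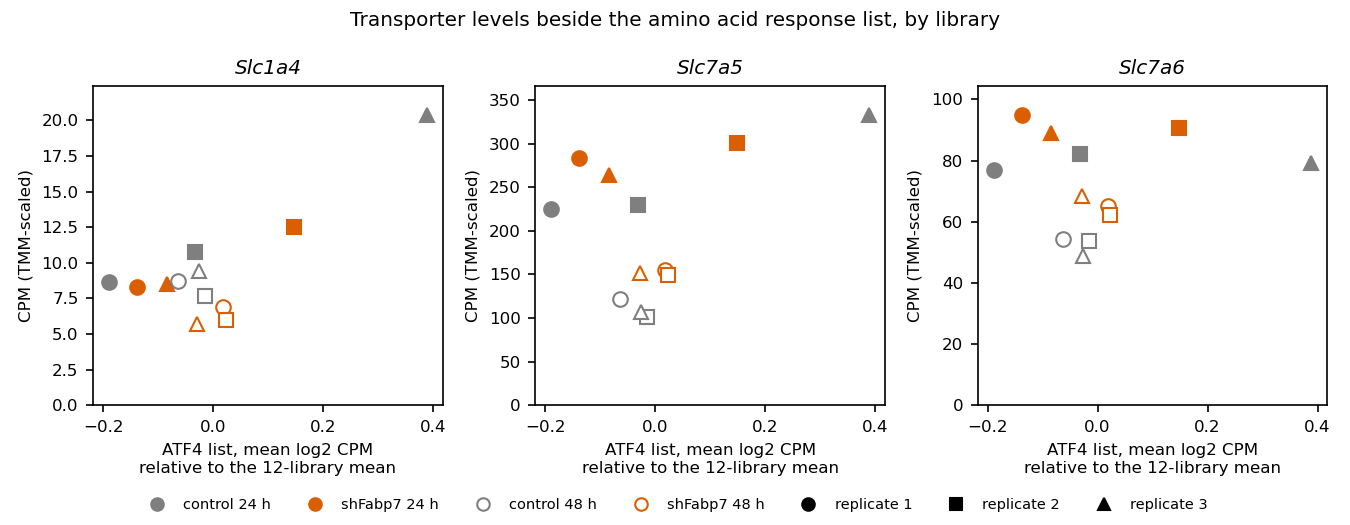
CPM (TMM-scaled, linear axis from 0) of Slc1a4, Slc7a5 and Slc7a6 against the mean log2 CPM of the 25-gene ATF4 list relative to its 12-library mean, with 1 point per library, colour for partner and filled markers for 24 h. The filled grey triangle at 0.39 is replicate 3 of the control partner at 24 h, the highest library for Slc1a4 (20.4 CPM) and Slc7a5 (333 CPM) but not for Slc7a6 (79.1 CPM).

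At 48 h, 5 of the 9 transporters, Slc7a5, Slc7a6, Slc1a5, Slc7a1 and Slc38a1, were higher with the shFabp7 partner and 0 were lower, while 31.6% of all tested genes passed the threshold, 19.9% higher and 11.6% lower. Of all calls 63.2% were higher, and 39.9% with upper-quartile scaling or 40.5% with library totals. The median log2 fold change of the 9 was 0.23, beside 0.01 over all tested genes. At an unadjusted p under 0.05 edgeR gave 6 higher and 0 lower, and DESeq2 called 5 higher and 0 lower. The 2 groups did not overlap in 7 of the 9 genes, against 44% of all tested genes.

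At 48 h Slc7a5 had 121, 102 and 106 CPM with the control partner and 155, 149 and 152 CPM with the shFabp7 partner, so every shFabp7 library was higher. Its log2 fold change was 0.47 ± 0.15 (1.38-fold), the largest of the 5, with an adjusted p of 0.0378 by edgeR. That fit shared the spread of all 4 groups, including the 333 CPM of the control library at 24 h. Fitted to the 48 h libraries alone, the log2 fold change was 0.44 ± 0.06 with an adjusted p of 7.2e-06, and without that 24 h library it was 0.44 ± 0.06 with an adjusted p of 1.43e-07. The call was lost in 12 of 20 alternatives. They were upper-quartile scaling (adjusted p = 0.0871), library totals (adjusted p = 0.0825), no filter on low counts (adjusted p = 0.0901), a replicate block, and the omission of replicate 2 or 3 of the control partner at 48 h or of any 1 of the 6 shFabp7 libraries, with adjusted p-values from 0.0651 to 0.123.

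The heavy chain Slc3a2 at 48 h had 154, 142 and 143 CPM with the control partner and 151, 163 and 171 CPM with the shFabp7 partner. These groups overlapped, and the log2 difference of 0.14 ± 0.07 did not pass (adjusted p = 0.117 by edgeR, 95% interval from 0.0026 to 0.29). Slc7a6 had 54.4, 53.8 and 48.7 CPM against 65.1, 62.3 and 68.4 CPM, with no overlap. Its log2 fold change was 0.32 ± 0.06 with an adjusted p of 3.77e-05 by edgeR, the smallest adjusted p among the members in this comparison, and it passed in all 20 alternatives. Slc43a1 had 4.77, 4.37 and 4.73 CPM against 4.99, 5.77 and 5.02 CPM. Its libraries did not overlap, but the log2 difference of 0.18 ± 0.14 did not pass (adjusted p = 0.355 by edgeR). It had 85 to 210 counts per library over the 12 libraries.

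The ratio of Slc7a5 to Slc3a2 CPM, light chain to heavy chain, was 1.12 ± 0.11 with the control partner against 1.15 ± 0.03 with the shFabp7 partner at 24 h (SD, n = 3). Its 24 h values were 1.08, 1.04 and 1.24 with the control partner against 1.16, 1.18 and 1.12 with the shFabp7 partner. Only replicate 3 of the control partner made these groups overlap, as replicates 1 and 2 lay below every shFabp7 library. At 48 h the ratio was 0.791, 0.718 and 0.742 with the control partner against 1.03, 0.913 and 0.886 with the shFabp7 partner. The 48 h groups did not overlap, and both lay below every 24 h library. For the other light chain, the ratio of Slc7a6 to Slc3a2 was 0.346 ± 0.044, 0.374 ± 0.016, 0.358 ± 0.020 and 0.405 ± 0.025 in the 4 groups in the order given in the opening. Such ratios of plain CPM are given to compare the groups, not the levels of 2 genes. These are descriptions of CPM, not of protein, and no test was made on them.

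Among the carriers that need no heavy chain, Slc1a5 at 48 h had 99.0, 91.4 and 83.5 CPM with the control partner and 108, 102 and 113 CPM with the shFabp7 partner. Every shFabp7 library was above every control library. Its log2 fold change was 0.24 ± 0.07 (adjusted p = 0.0115 by edgeR), and the call was lost under upper-quartile scaling (adjusted p = 0.115), with library totals (0.112), without replicate 3 of the control partner (0.0794) and without replicate 3 of the shFabp7 partner (0.0607). Slc7a1 had 224, 190 and 192 CPM against 254, 254 and 256 CPM. The shFabp7 libraries were nearly level and all higher, and the log2 fold change was 0.33 ± 0.08 (adjusted p = 0.00293 by edgeR). Slc38a1 had 237, 206 and 212 CPM against 254, 251 and 264 CPM, again with no overlap. It rose by 0.23 ± 0.06 on the log2 scale (adjusted p = 0.00126 by edgeR), and both Slc7a1 and Slc38a1 passed in all 20 alternatives.

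At 48 h Slc38a2 had 150, 138 and 142 CPM with the control partner and 148, 145 and 145 CPM with the shFabp7 partner. The log2 difference was 0.03 ± 0.06, with a 95% interval from -0.09 to 0.15 and an adjusted p of 0.771 by edgeR, while the estimate for its relative Slc38a1 was 0.23. The ratio of Slc38a1 to Slc38a2 CPM was 1.52 ± 0.050 with the control partner against 1.76 ± 0.055 with the shFabp7 partner at 48 h, with no overlap. Slc1a4 was the only member with a lower mean with the shFabp7 partner, at 8.72, 7.69 and 9.44 CPM against 6.86, 6.0 and 5.71 CPM. Its libraries did not overlap, yet its log2 difference of -0.47 ± 0.32 did not pass in the fit that shared the spread with its 24 h values (adjusted p = 0.323 by edgeR). Fitted to the 48 h libraries alone it was -0.50 ± 0.11 with an adjusted p of 0.00218, and without the high control library at 24 h it was -0.50 ± 0.14 with 0.00468.

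**Figure D3:**
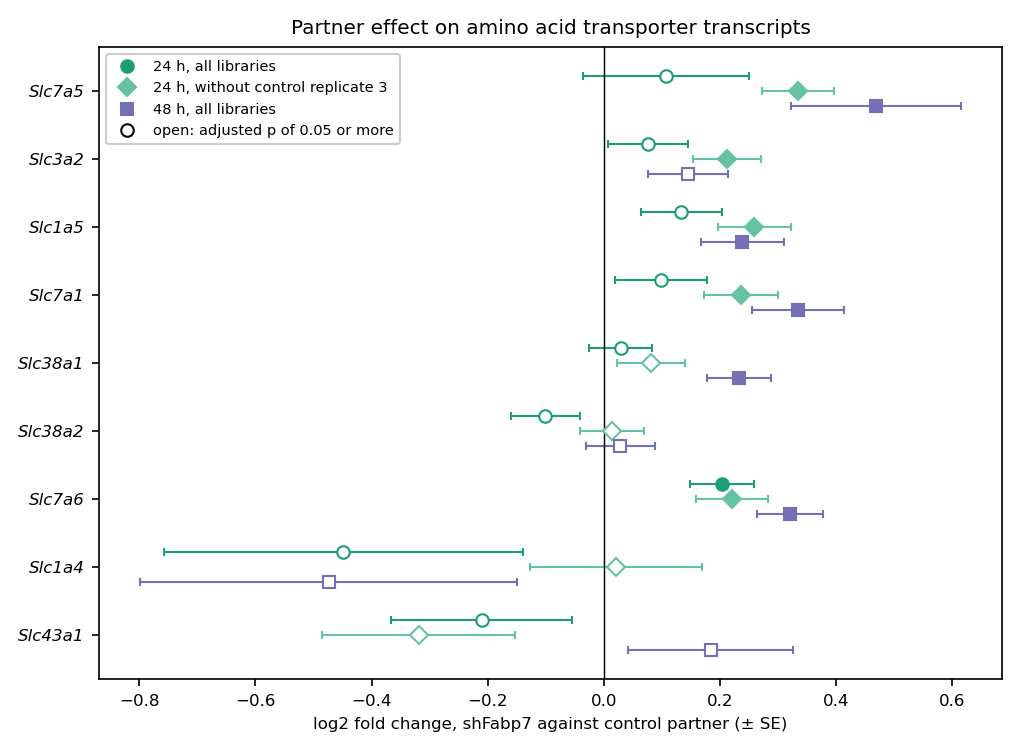
Log2 fold change of each transporter, shFabp7 against control partner (± SE, edgeR), at 24 h with all libraries, at 24 h without replicate 3 of the control partner and at 48 h, with open markers where the adjusted p is 0.05 or more. Filled markers number 1, 5 and 5, and Slc7a6 is filled in all 3.

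Summed T cell markers at 48 h were 3376 to 3487 CPM with the control partner and 3535 to 3614 CPM with the shFabp7 partner, and of the 12 genes 3 were higher and 5 lower. Neutrophil markers summed to 4.84 to 9.98 CPM with the control partner and 3.33 to 4.71 CPM with the shFabp7 partner, with 2 of the 5 tested genes lower. NK cell markers summed to 145 to 162 and 141 to 145 CPM without overlap, with 1 of 5 lower, and epithelial markers to 6.79 to 7.58 and 4.53 to 6.06 CPM, with 1 of 4 lower. The sums of the B cell, monocyte and macrophage, dendritic cell, erythroid and fibroblast lists overlapped at 48 h. At 24 h monocyte and macrophage markers summed to 14.0 to 15.9 CPM with the control partner and 11.5 to 13 CPM with the shFabp7 partner, and epithelial markers to 11.3 to 12.4 and 10.0 to 10.6 CPM, both without overlap and with 0 genes past the threshold by edgeR. The T cell marker sums, at 3976 to 4005 and 3850 to 4031 CPM, and those of the other lists overlapped at 24 h. The part of these lists in the transporter values was not tested.

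In the test of whether the partner effect differed between 24 and 48 h, edgeR called 0 of the 9 transporters, while 5.6% of all tested genes passed, 4.43% with a larger value at 48 h and 1.17% with a smaller one. Of all calls 79.0% had the larger value at 48 h, and 48.9% with upper-quartile scaling or 61.9% with library totals. At an unadjusted p under 0.05 edgeR gave 2 members, Slc7a1 and Slc38a1, and DESeq2 likewise gave 0 adjusted and 2 unadjusted. The partner effect was larger at 48 h by 0.20 on the log2 scale for Slc38a1 (95% interval from 0.05 to 0.36, adjusted p = 0.125 by edgeR), by 0.24 for Slc7a1 (0.0011 to 0.47, adjusted p = 0.258) and by 0.36 for Slc7a5 (-0.10 to 0.83, adjusted p = 0.398). Without replicate 1 of the control partner at 48 h, the value for Slc38a1 was 0.27 ± 0.07 and passed (adjusted p = 0.0079). With replicate 3 of the control partner at 24 h left out, the values for Slc38a1, Slc7a1 and Slc7a5 were smaller, at 0.12, 0.07 and 0.11. None of them passed (adjusted p = 0.477, 0.757 and 0.594 by edgeR). With all libraries, the other 6 members had adjusted p-values from 0.317 to 0.988 in this test.

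From 24 to 48 h, 7 of the 9 transporters fell with each partner: Slc7a5, Slc3a2, Slc7a6, Slc1a5, Slc7a1, Slc38a1 and Slc38a2. With the control partner 67.7% of all tested genes passed the threshold, 35.8% higher and 32% lower, and 0 transporters were higher. With the shFabp7 partner 66.1% passed, 35.9% higher and 30.2% lower, and 1 transporter, Slc43a1, was higher. The median log2 fold change of the 9 was -0.62 with the control partner against -0.49 with the shFabp7 partner, beside 0.04 and 0.06 over all tested genes. Without the high control library at 24 h, the 7 genes no longer all fell more with the control partner. Slc3a2 then changed by -0.53 and -0.63, Slc1a5 by -0.70 and -0.75, and Slc38a2 by -0.49 and -0.51, control partner first. Slc7a5, Slc7a6, Slc7a1 and Slc38a1 still fell more with the control partner. Summed over the 9, the level was 1482 to 1830 CPM with the control partner and 1585 to 1737 CPM with the shFabp7 partner at 24 h. It was 934 to 1054 CPM and 1138 to 1180 CPM at 48 h.

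The amino acid exchangers Slc7a5 and Slc1a5 fell furthest. Slc7a5 changed by -1.26 ± 0.15 on the log2 scale with the control partner, to 0.418 of its 24 h level (adjusted p = 3.77e-05 by edgeR), and by -0.89 ± 0.14 with the shFabp7 partner (adjusted p = 4.08e-04). Without the high control library at 24 h, these changes of Slc7a5 were -1.03 ± 0.06 and -0.93 ± 0.06. With all libraries, Slc1a5 changed by -0.83 ± 0.07 and -0.72 ± 0.07. The heavy chain Slc3a2 changed by -0.67 ± 0.07 and -0.60 ± 0.07, and Slc7a6 by -0.60 ± 0.06 and -0.49 ± 0.06. Slc38a1 changed by -0.65 ± 0.06 and -0.45 ± 0.05, and Slc38a2 by -0.60 ± 0.06 and -0.47 ± 0.06. Slc7a1 had the smallest change of the 7, with -0.54 ± 0.08 and -0.30 ± 0.08, and with library totals as scaling its fall with the shFabp7 partner did not pass (-0.16 ± 0.08, adjusted p = 0.0991). In all 7 genes, every 48 h library was below every 24 h library of the same partner, where 68.6% of all tested genes had no overlap with the control partner, beside 71.4% with the shFabp7 partner. Adjusted p-values of the 6 genes after Slc7a5 were at most 5.37e-06 with the control partner against 0.00222 with the shFabp7 partner. Comparisons with the same partner and those at the same time share libraries, so their values stand side by side and are not independent.

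Of the low-abundance members, Slc43a1 had positive and Slc1a4 negative differences over time. Slc43a1 had 4.0, 4.33 and 3.10 CPM at 24 h and 4.77, 4.37 and 4.73 CPM at 48 h with the control partner, a log2 difference of 0.28 ± 0.15 that did not pass (adjusted p = 0.0933 by edgeR). With the shFabp7 partner it rose from 3.29 ± 0.379 to 5.26 ± 0.444 CPM, by 0.67 ± 0.15 on the log2 scale (adjusted p = 1.95e-04), and passed in all 20 alternatives. With the control partner it passed under upper-quartile scaling (adjusted p = 0.0223), with library totals (0.0054) and without replicate 2 at 24 h (0.032). Slc1a4 did not pass with either partner, at -0.62 ± 0.31 (adjusted p = 0.102) and -0.65 ± 0.33 (adjusted p = 0.112). Without the high control library at 24 h, its change with the control partner was -0.16 ± 0.15 (adjusted p = 0.363) and that with the shFabp7 partner -0.68 ± 0.14 (adjusted p = 6.23e-05). Without replicate 1 of the control partner at 24 h both changes passed, at -0.84 ± 0.26 and -0.68 ± 0.25 (adjusted p = 0.0169 and 0.0384), and the change with the shFabp7 partner also passed by DESeq2 (-0.69 ± 0.32, adjusted p = 0.0484) and when only the compared groups were fitted (-0.67 ± 0.14, adjusted p = 2.10e-04).

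**Figure D4:**
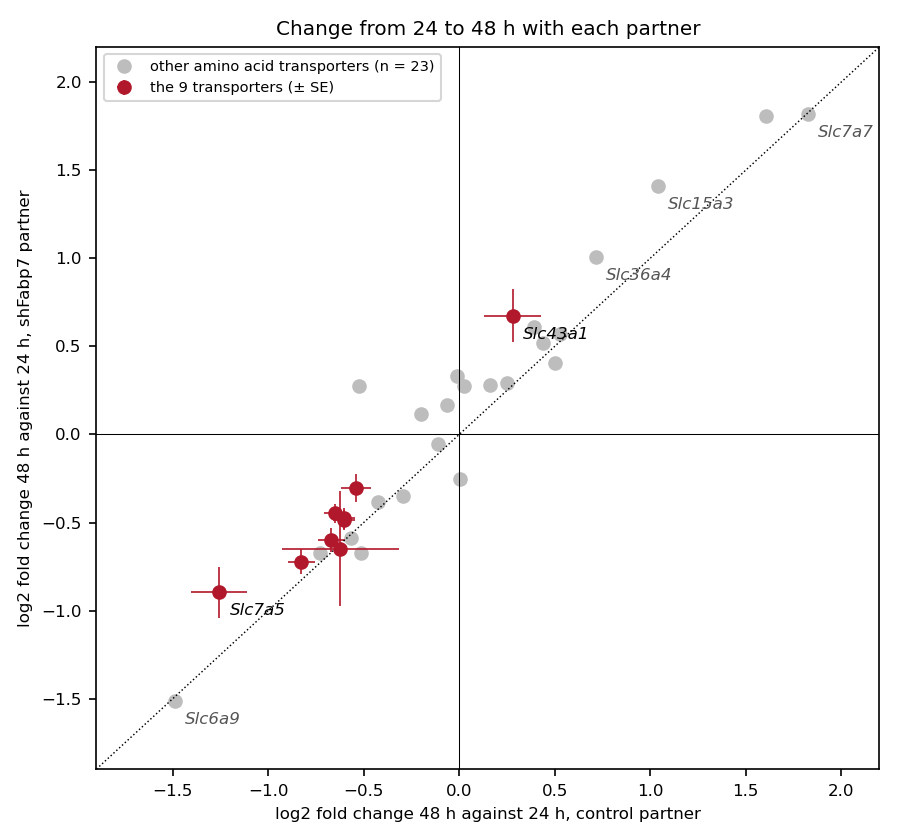
Log2 fold change from 24 to 48 h with the shFabp7 partner against that with the control partner, for the 9 transporters (red, ± SE, edgeR) and for 23 other amino acid transporters that reached a mean of 1 CPM in a group (grey, Slc38a3 left out), with the line of equal change dotted. Slc7a5 is the red point furthest down at -1.26 and -0.89, and Slc43a1 is the red point above 0. Of the 9 red points 8 lie above the line, by 0.36 for Slc7a5 and 0.39 for Slc43a1, and 0 of these differences passed the threshold. Without replicate 3 of the control partner at 24 h, the difference was 0.11 for Slc7a5 and 0.47 for Slc43a1. It was then negative for Slc3a2 (-0.10), Slc1a5 (-0.05), Slc38a2 (-0.01) and Slc1a4 (-0.52), and stayed positive for Slc7a1, Slc38a1 and Slc7a6. Grey points lie on both sides of the line. Of all 29 other carriers tested, 21 had a positive difference of this kind with all libraries, as had 9629 of the 16945 tested genes.

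Over the same interval the summed T cell markers went from 3976 to 4005 CPM down to 3376 to 3487 CPM with the control partner, and 7 of the 12 were lower and 3 higher. With the shFabp7 partner 7 were lower and 4 higher. Fibroblast markers summed to 3.43 to 6.29 CPM at 24 h and 10.7 to 14.1 CPM at 48 h over both partners, dendritic cell markers to 9.13 to 11.2 CPM and 23.9 to 28.0 CPM, and B cell markers to 14.4 to 18.2 CPM and 21.1 to 25.5 CPM. Of the 8 tested B cell markers, 2 were called higher and 1 lower with the control partner, where 5 differences were negative. With the shFabp7 partner 3 were called higher and 2 lower, and 2 differences were negative. Epithelial markers summed to 10.0 to 12.4 CPM at 24 h and 4.53 to 7.58 CPM at 48 h, so their sum was lower. The 4 tested genes went both ways, as 2 differences were negative and 2 positive with each partner. Among these 4, 0 were called higher, while 1 was called lower for the control partner against 2 for shFabp7. Summed monocyte and macrophage markers were higher at 48 h with each partner, but 4 of the 6 tested had negative differences. With each partner 2 of these 6 were called higher and 2 lower. Summed neutrophil markers were lower without overlap with the shFabp7 partner, with 1 of 5 called higher and 2 lower. Their part in the change of the transporters was not tested.

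Other amino acid carriers were counted in the same way. Of 47 further carrier genes 29 were tested, and from 24 to 48 h 12 were higher and 4 lower with the control partner and 16 higher and 4 lower with the shFabp7 partner, with medians of 0.25 and 0.29 on the log2 scale. These counts stand beside 35.8% higher and 32% lower, and 35.9% and 30.2%, of all tested genes, and their difference from the members was not tested. Slc15a3, a lysosomal carrier of peptides and histidine, rose by 1.04 ± 0.06 and 1.41 ± 0.06, and Slc36a4, a carrier of proline and tryptophan, by 0.71 ± 0.07 and 1.01 ± 0.07. Slc38a3 (SNAT3), a glutamine carrier, had 0, 0, 1, 0, 0 and 0 counts in the 6 libraries at 24 h and 41 to 74 counts in those at 48 h. The lysosomal carrier Slc38a7 fell by 0.73 ± 0.08 and 0.67 ± 0.08, and Slc6a9 changed by -1.49 ± 0.36 and -1.51 ± 0.39. Without replicate 3 of the control partner at 24 h, the change of Slc6a9 with the control partner was -0.89 ± 0.13 (adjusted p = 1.87e-07 by edgeR). Over all 253 tested Slc genes, 117 were higher and 73 lower with the control partner, and 128 and 67 with the shFabp7 partner.

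Between the partners, 0 of these 29 carriers were higher and 3 lower at 24 h, beside 6.22% and 4.65% of all tested genes. By edgeR 2 were higher at an unadjusted p under 0.05, and DESeq2 called 1 higher and 3 lower. The 3 lower were Slc43a2 (LAT4), a relative of Slc43a1, at -0.27 ± 0.06, Slc36a4 at -0.23 ± 0.07 and Slc38a9, the lysosomal arginine sensor of mTORC1, at -0.26 ± 0.08 on the log2 scale. Without replicate 3 of the control partner at 24 h the values of Slc36a4 and Slc38a9 were nearly the same but did not pass (adjusted p = 0.0618 and 0.0615 by edgeR). At 48 h 5 were higher and 2 lower, beside 19.9% and 11.6% of all tested genes. Among them were the taurine carrier Slc6a6 at 0.41 ± 0.05, Slc15a3 at 0.41 ± 0.06, Slc36a1 at -0.30 ± 0.09 and Slc38a9 at -0.21 ± 0.08. The cystine carrier Slc7a11, which also pairs with Slc3a2, was low throughout, at 1.55 to 2.08 CPM with the control partner at 24 h and 0.736 to 0.804 CPM with the shFabp7 partner at 48 h.

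Of the 35 genes of mTORC1 and amino acid sensing, all tested, 3 were higher and 3 lower with the shFabp7 partner at 24 h and 10 higher and 4 lower at 48 h, beside 10.9% and 31.6% of all tested genes called in either direction. At 48 h Rraga, one of the small GTPases that bring mTORC1 to the lysosome, was higher by 0.46 ± 0.06, and Sesn1, a leucine-binding inhibitor of the pathway, changed by -0.60 ± 0.06 (adjusted p = 1.32e-09 by edgeR). Sesn1 was lower at 24 h as well, by -0.23 ± 0.06, and Castor2, of the arginine sensor family, changed by -0.25 ± 0.07 at 24 h and -0.34 ± 0.07 at 48 h. Without replicate 3 of the control partner at 24 h, Sesn1 and Castor2 did not pass at 24 h (adjusted p = 0.0537 and 0.136 by edgeR). From 24 to 48 h 10 were higher and 19 lower with the control partner, and 9 and 15 with the shFabp7 partner, where 67.7% and 66.1% of all tested genes were called. Among them the arginine sensor Castor1 rose by 2.16 ± 0.07 and 2.47 ± 0.07, and the mTORC1 subunit Akt1s1 changed by -1.16 ± 0.07 and -1.03 ± 0.06.

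In the ATF4 list at 48 h, 4 of 25 genes were higher and 1 lower with the shFabp7 partner, beside 19.9% and 11.6% of all tested genes. Atf3 was higher by 0.58 ± 0.06, the serine enzymes Shmt2 and Phgdh by 0.43 ± 0.08 and 0.22 ± 0.05, and the stress factor Ddit3 (CHOP) changed by -0.46 ± 0.07. At 24 h Atf3 was higher by 0.40 ± 0.06 and the serine enzyme Psph changed by -0.23 ± 0.06. Psph did not pass without replicate 3 of the control partner (adjusted p = 0.147 by edgeR). Shmt2 and Atf4 passed at 24 h only with that library left out, at 0.32 ± 0.06 and 0.19 ± 0.06 (adjusted p = 0.00117 and 0.0291 by edgeR). With all libraries their adjusted p-values at 24 h were 0.188 and 0.317. From 24 to 48 h 6 were higher and 12 lower with the control partner against 8 and 8 with the shFabp7 partner, where 67.7% and 66.1% of all tested genes were called. Atf4 itself changed by -0.60 ± 0.06 with each partner, while Ddit4, an inhibitor of mTORC1, rose by 1.29 ± 0.06 and 1.27 ± 0.06.

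Enzymes that use the carried amino acids were counted for 21 of 22 genes. With the shFabp7 partner 2 were higher and 2 lower at 24 h, beside 6.22% and 4.65% of all tested genes. At 48 h 12 were higher and 3 lower, beside 19.9% and 11.6% of all tested genes. Odc1, which makes putrescine from the arginine product ornithine, was higher by 0.29 ± 0.05 at 24 h and 0.60 ± 0.06 at 48 h, with 214, 213 and 216 CPM against 324, 334 and 316 CPM at 48 h. Every shFabp7 library of Odc1 was above every control library at both times. Got2, the mitochondrial aspartate aminotransferase, was higher by 0.43 ± 0.05 at 48 h. Arg1, which splits arginine, changed by -1.30 ± 0.30 at 24 h and -1.31 ± 0.26 at 48 h, at levels of 0.481 to 2.88 CPM. From 24 to 48 h 11 of the 21 were higher and 6 lower with the control partner against 12 and 4 with the shFabp7 partner, where 67.7% and 66.1% of all tested genes were called. Bcat1, the cytosolic enzyme that starts leucine breakdown, changed by -1.61 ± 0.08 and -1.18 ± 0.08, and the glutaminase Gls2 rose by 1.88 ± 0.12 and 2.42 ± 0.12.

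Likeness of pattern was described by Pearson's r of log2 CPM over the 12 libraries, which share their scaling and the large difference between the times. Among 8807 genes with a mean of at least 10 CPM, those most like Slc7a5 were Shmt2 (r = 0.995), the isoleucine tRNA synthetase Iars (r = 0.993), the tRNA exporter Xpot (r = 0.990), the caspase-8 regulator Cflar (r = 0.990) and the alanine tRNA synthetase Aars (r = 0.988). Slc1a5 ranked 10, Slc38a1 ranked 15 and Slc3a2 ranked 18 in that order, while Slc7a1, Slc38a2 and Slc7a6 ranked 359, 906 and 965. The genes most like Slc38a2 were Setd2 (r = 0.986), Kat6a and Hipk1 (r = 0.985), and Ncor1 and Ubr1 (r = 0.984), and the closest member, Slc3a2, ranked 163. Shmt2 had 426, 482, 186 and 251 CPM on average in the 4 groups, in the same order of groups as Slc7a5 at 262, 283, 110 and 152 CPM. With the group means taken out, Slc7a5 still went with Slc38a2 (r = 0.958), Slc7a1 (r = 0.947), Slc3a2 (r = 0.875) and Slc1a4 (r = 0.875) over the 12 libraries, but not with Slc7a6 (r = 0.124). The low-abundance Slc43a1 ran opposite to it (r = -0.731). Without replicate 3 of the control partner at 24 h these values were 0.864 for Slc38a2, 0.934 for Slc7a1, 0.557 for Slc3a2, 0.545 for Slc1a4, 0.336 for Slc7a6 and -0.266 for Slc43a1 over 11 libraries, a setting chosen after the data were seen.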

How the data were processed

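The authors deposited a table of raw read counts, one row per gene symbol and with no scaling, for T cells in 12 libraries (4 groups of 3, named in their titles). CASAVA 1.8.2, TopHat2 2.0.13, HTSeq 0.6.1p1 and build GRCm39 are named in the submitters' processing notes. The sources used here do not give the strand mode, the annotation or the treatment of reads shared by overlapping genes or paralogs, and such reads could not be separated. The members and the gene lists were chosen with earlier results of these data known.

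Genes were kept with filterByExpr (minimum count 10, total 15), which left 16945. Libraries were scaled by TMM, and all 12 were fitted together, with 1 coefficient per group, by edgeR 4.0.16 (quasi-likelihood, robust) in R 4.3.3. P-values were adjusted by Benjamini-Hochberg over all tested genes in each of 5 comparisons, and every adjusted p comes from this test or, where another setting is named, from edgeR or DESeq2 1.42.0 under that setting. Values after ± are SE for log2 fold changes and SD (n = 3) for levels, and intervals are 95%. The procedure was tested on simulated data.

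Named genes were the 9 members and, per list and comparison, up to 3 called genes in each direction by smallest p with a mean of at least 1 CPM, plus the 5 genes most like Slc7a5 and Slc38a2. Transcript lengths came from an annotation of build GRCm38, and promoters from RefSeq of GRCm38.p6. Alternatives were DESeq2, RLE, upper-quartile and library-total scaling, no or a stricter filter (1 CPM in 3 libraries, 100 counts in total), a fit to only the groups compared, a replicate block, the longest transcript as length, and each library left out in turn.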

Additional observations from a re-analysis of the deposited data

How the results depend on the processing

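None of the member results changed direction while past the threshold in any alternative. Over all alternatives, 856 member results kept their call, 20 lost it and 15 gained it. With 3 libraries a group, single libraries moved several counts. Upper-quartile scaling gave 3 transporters higher with the shFabp7 partner at 48 h and library totals also gave 3. Each of these scalings gave 1 transporter higher from 24 to 48 h with the control partner, and library totals gave 0 higher with the shFabp7 partner at 24 h. With only the compared groups fitted, 1 transporter was lower at 48 h. With single libraries left out, the number higher with the shFabp7 partner ran from 0 to 5 at 24 h and from 3 to 5 at 48 h, and the number lower at 48 h from 0 to 1. The number higher over time with the control partner, and the number with a larger partner effect at 48 h, each ran from 0 to 1. The longest transcript as length gave, with the control partner at 24 h, 74.6 CPM per kilobase for Slc7a5, 82.6 for Slc3a2, 57.7 for Slc1a5, 40.9 for Slc7a1, 47.2 for Slc38a1, 35.6 for Slc38a2, 21.2 for Slc7a6 and 0.970 for Slc43a1.

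Same-numbered libraries shared no clear deviation: their deviations from their group means had correlations from -0.067 to 0.036 over 18 pairs. With 3 libraries a group, this cannot show whether the libraries were paired. With the replicate number as a block, 4 transporters were higher with the shFabp7 partner at 48 h in place of 5, as Slc7a5 changed to an adjusted p of 0.0662 by edgeR, and the other counts of members stayed as reported. Over all genes the block gave 1777 calls for the partner effect at 24 h in place of 1842.

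Over all tested genes, 1842 were called between the partners at 24 h, 949 without replicate 1 and 2525 without replicate 2 of the control partner at 24 h, and 1045 without replicate 1 of the shFabp7 partner at 24 h. For the change of the partner effect the count of 949 became 1680 without replicate 1 of the control partner at 48 h and 319 to 649 without any 1 of the other libraries. The share of calls that were higher at 24 h was 57.2%, and 71.9% with RLE scaling, 42.1% with upper-quartile scaling, 33.2% with library totals, 73.1% with DESeq2 and 69.3% with no filter. At 48 h it was 63.2%, and 39.9% with upper-quartile scaling and 40.5% with library totals. For time it was 52.8% with the control partner, 54.3% with the shFabp7 partner, and 67.2% and 66.4% with library totals. The median log2 fold change over time of all genes was 0.04 with the control partner, 0.06 with the shFabp7 partner. It was 0.14 with the control partner under upper-quartile scaling, and 0.23 and 0.21 for the 2 partners under library totals. The 7 falling transporters had negative values under each of these scalings.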
